A study of Bos taurus with 13 samples.

Results

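The genes described here are the Janus kinases (JAK1, JAK2, JAK3 and TYK2) and 5 of the signal transducers and activators of transcription (STAT3, STAT4, STAT5A, STAT5B and STAT6), chosen by name from the gene rows of the count tables. Of these 9 genes, 8 were found by name among 16095 named genes, and STAT4 was not analysed here. Counts came from whole blood of 13 lactating dairy cows of the Italian Red Pied breed, the Italian Simmental of the paper, clinically healthy cows kept on the same commercial farm, with no treatment named in the labels or the paper. The 7 cows of the high group (cows 1 to 7) and the 6 cows of the low group (cows 8 to 13) were taken from the upper and lower ends of a ranking by cortisol in milk, a marker of stress in dairy cows, and the cortisol value and age of each cow were not given in the sources used here. Blood of the tail vein was collected into PAXgene tubes, which preserve RNA at sampling, and haemoglobin transcripts were not depleted.

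JAKs are tyrosine kinases bound to the inner ends of cytokine receptors, and each receptor uses a particular pair of them. When a cytokine joins the receptor chains, the paired kinases activate each other and phosphorylate the chains, STAT proteins dock there, become phosphorylated, and move to the nucleus to switch on target genes. In blood, JAK1 and JAK3 serve the receptors of IL-2, IL-4, IL-7, IL-15 and IL-21, TYK2 and JAK1 those of type I interferon, and JAK2 those of interferon gamma, erythropoietin, growth hormone and prolactin. STAT3 is the main transducer of IL-6, IL-10 and granulocyte colony-stimulating factor, STAT5A and STAT5B of IL-2, prolactin and growth hormone, and STAT6 of IL-4 and IL-13. The activated glucocorticoid receptor, which binds cortisol, is known to act on DNA together with STAT3 and STAT5. Activity of the pathway is set by phosphorylation, which RNA counts do not measure.

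In the gene models of the count tables (UMD3.1), 3 of the STAT genes lay side by side on chromosome 19. STAT5B was at 19:42960226-42996671 on the minus strand, STAT5A at 19:43033597-43054075 on the plus strand, and STAT3 at 19:43056660-43132624 on the minus strand. The gap between STAT5B and STAT5A was 36925 bp, and that between STAT5A and STAT3 was 2584 bp. STAT6 was at 5:56658077-56670842 on the plus strand. Of the kinases, JAK1 was at 3:80861479-80915019 on the plus strand, JAK2 at 8:39632638-39719731 on the minus strand, JAK3 at 7:5236645-5249994 on the plus strand and TYK2 at 7:16103271-16132860 on the minus strand. No exon of these 8 genes overlapped an exon of another named gene. STAT5A and STAT5B are near-identical copies, and reads that fit both could be split between them or dropped in the counting, so their separate values are uncertain to that extent.

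The reads counted on named genes numbered 11045599 to 28124575 per cow, and no 2 of the 13 libraries (78 pairs) held the same counts. Levels are given as CPM, the usual per-library scaling of counts by the named-gene total, here after TMM factors, which were between 0.928 and 1.10. Every one of the 8 genes was well counted, from 332 reads for JAK2 in its lowest cow to 19003 for JAK1 in its highest. The library of cow 4 of the high group stood apart on the first principal component of all genes tested, which held 29.0% of the variance, with a score of -62.4 against -19.1 to 31.3 in the other 12. The white blood cell types of the tissue label were present, with S100A9 of neutrophils at 1177 to 2676 CPM, CD68 of monocytes at 211 to 606, CD3E of T cells at 765 to 1723 and CD79A of B cells at 469 to 1172. In whole blood, fewer cells of a type and less RNA per cell cannot be told apart.

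JAK1 and STAT6 had the highest levels per exon length and JAK2 had by far the lowest. On the scale of CPM per kilobase of exon, over 13 cows, JAK1 was at 141 ± 14.7 (SD), STAT6 at 131 ± 15.1, STAT3 at 75.7 ± 12.0 and JAK3 at 75.5 ± 9.61. STAT5A was at 58.5 ± 6.90, TYK2 at 55.3 ± 4.95, STAT5B at 44.7 ± 5.47 and JAK2 at 11.7 ± 4.18. Among all 11033 genes tested, the level of JAK1 lay at percentile 93.7 and that of JAK2 at percentile 47.8. Some steps of this order held in every cow and others did not. STAT6 was above STAT3, TYK2 above STAT5B and STAT5B above JAK2 in 13 of 13 cows, and JAK3 was above STAT5A in 12. JAK1 was above STAT6 in 8 of 13 cows, STAT3 above JAK3 in 6 and STAT5A above TYK2 in 9, so the order within these 3 neighbouring pairs changed from cow to cow. The order was not tested.

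**Figure D1:**
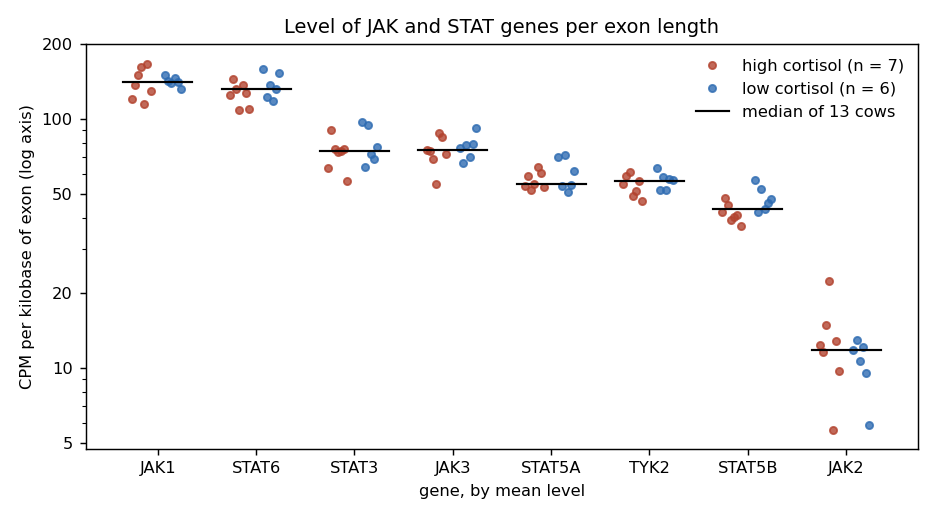
Level of each gene in each of the 13 cows, in CPM per kilobase of exon on a log axis, with genes ordered by mean; points are cows of the high (n = 7) and low (n = 6) groups and black lines are medians of 13 cows. JAK1 and STAT6 share the top of the order, and JAK2 sits below the others in every cow, with a range of 5.59 to 22.4.

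In percentage points of the family sum, the shares of JAK3 and JAK1 had the largest SD from cow to cow and that of STAT5B the smallest. JAK1, the kinase used by most cytokine receptors, made up 49.6% ± 3.18 (SD, n = 13) of the summed per-kilobase level of the 4 kinases. JAK3, which works only with receptors that hold the common gamma chain, made up 26.7% ± 3.70, with a range of 19.02% to 33.7%, and TYK2 19.5% ± 1.38. JAK2 gave the remaining 4.12% ± 1.42, and its share ranged from 2.05% to 7.77%. Of the 4 STAT genes, STAT6 made up 42.3% ± 1.84, STAT3 24.3% ± 1.69, STAT5A 18.9% ± 1.23 and STAT5B 14.4% ± 0.716. None of these 8 shares differed between the groups by the exact two-sided permutation test with Benjamini-Hochberg adjustment. The smallest p was that of STAT5B, at 14.1% ± 0.754 in the high group and 14.8% ± 0.454 in the low group (exact p = 0.0606, adjusted p = 0.485 over 8 shares).

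The 8 genes varied little between cows, apart from JAK2. The coefficient of variation of CPM over 13 cows was 8.95% for TYK2, 10.4% for JAK1, 11.5% for STAT6, 11.8% for STAT5A, 12.2% for STAT5B, 12.7% for JAK3 and 15.8% for STAT3. These 7 were below the median of all genes tested (21.3%) and below that of the 6157 tested genes with a mean of at least 20 CPM (16.2%). JAK2, with 35.7%, was above the value of 77.5% of tested genes. Its highest cow was 4.00 times its lowest, whereas this ratio was between 1.36 and 1.72 for the other 7 genes. By Dixon's test at the 95% level, no cow stood apart at either end of either group for any of the 8 genes or for the STAT5A to STAT5B ratio (36 ends compared, of 18 groups).

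The study ranked cows by milk cortisol to ask whether blood transcripts differ between its extremes. None of the 8 JAK and STAT genes differed between high and low cortisol by edgeR's quasi-likelihood test with Benjamini-Hochberg adjustment over 11033 genes (adjusted p = 0.998 for each). Over all genes tested, the same test called 0 genes (0%), and DESeq2 called 1. At an unadjusted p below 0.05, 0 of the 8 genes and 231 of all genes (2.09%) passed in edgeR. DESeq2 and limma-voom also gave 0 of the 8 at that unadjusted limit. The log2 fold change, high over low, was below 0 for 7 of the 8 genes and for 46.7% of all genes, with medians of -0.08 and 0.01. Several of the 8 genes were correlated across cows, with values given after the group comparison, so their signs are not separate observations. The groups of every one of the 8 genes overlapped, as they did for all but 3 tested genes (0.0272%).

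Of the kinases, JAK1 had 551 CPM in its lowest, 656 in its median and 794 in its highest cow of the high group, and 631, 676 and 718 in the low group. The low group lay wholly inside the range of the high group, and the log2 fold change was -0.02 (SE 0.10, 95% interval -0.23 to 0.20, exact permutation p = 0.755). TYK2, which serves receptors of type I interferon, IL-12 and IL-23, had a lowest, median and highest value of 270.1, 317 and 355 CPM in the high group and 298, 330.4 and 367 in the low group. The groups covered almost the same range, and the log2 fold change was -0.07 (SE 0.09, interval -0.26 to 0.13, exact permutation p = 0.364). In the high group JAK3 ran from 199 CPM through a median of 269 to 317, and in the low group from 241 through 281 to 334, with a log2 fold change of -0.06 (SE 0.11, interval -0.30 to 0.17, exact permutation p = 0.557).

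JAK2 was the only one of the 8 with a positive log2 fold change. Its lowest, median and highest cows had 19.03, 42.1 and 76.2 CPM in the high group and 19.97, 38.1 and 43.8 in the low group. Both groups held 1 cow near 20 CPM (cow 5 and cow 13), and the high group alone held cows above 50, cow 3 at 50.7 and cow 4 at 76.2. The log2 fold change of 0.29 (SE 0.25, interval -0.24 to 0.81, exact permutation p = 0.436) was 0.09 without cow 4 and 0.42 without cow 5.

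STAT5B came closest to a difference. Its lowest, median and highest cows had 96.0, 106 and 124 CPM in the high group and 109, 121 and 146 in the low group. In the high group 6 of 7 cows were below the median of the low group, but the ranges overlapped between 109 and 124 CPM. The means were 108 ± 9.66 (SD, n = 7) and 124 ± 14.4 (n = 6), with a log2 fold change of -0.20 (SE 0.09, interval -0.40 to 0.00, edgeR adjusted p = 0.998). The exact two-sided permutation test over 1716 splits gave p = 0.0344 before adjustment and adjusted p = 1.00 over all 11033 genes. By this test, 226 of the 11033 genes (2.05%) had an unadjusted p below 0.05. The haemoglobin share of counts was 0.0282% to 0.815% in the high group and 0.0114% to 0.0552% in the low group, ranges that overlapped (exact permutation p = 0.0175 on the log2 scale, not adjusted, 1 of 7 library measures compared). Log2 CPM of STAT5B was lower where this share was higher (r = -0.70, permutation p = 0.00707, adjusted p = 0.0360 over 56 relations, rho = -0.77, p = 0.00300, adjusted p = 0.0240). Without the 2 cows farthest from the median share, r was -0.54, and it was -0.68 within the high and -0.42 within the low group. With the log2 haemoglobin share as a covariate the log2 fold change of STAT5B was -0.08. As the share was itself higher on average in the high group, this fit cannot fully separate it from the group. The part of red-cell RNA in the difference was not tested.

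STAT5A, its neighbour and copy, had 128, 136 and 158 CPM as lowest, median and highest values in the high group and 125, 143 and 177 in the low group. The low group spanned the whole of the high group, and the log2 fold change was -0.09 (SE 0.10, interval -0.30 to 0.13, exact permutation p = 0.424). It was -0.03 without cow 8 or cow 10 and -0.13 without cow 11. In the high group STAT3 ran from 249 through 328 to 396 CPM, and in the low group from 283 through 329 to 429, with almost equal medians and a log2 fold change of -0.12 (SE 0.13, interval -0.38 to 0.15, exact permutation p = 0.389). STAT6 ran from 285 through 331 to 377 CPM and from 309 through 352 to 416, with 5 of 7 cows of the high group below the median of the low group and a log2 fold change of -0.12 (SE 0.10, interval -0.33 to 0.10, exact permutation p = 0.215). For STAT3, STAT6 and TYK2 the sign turned positive with the haemoglobin share as a covariate, and for JAK1 it turned under several alternatives, as did that of JAK3 with the first principal component as a covariate, so no direction is given for these 5 genes.

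**Figure D2:**
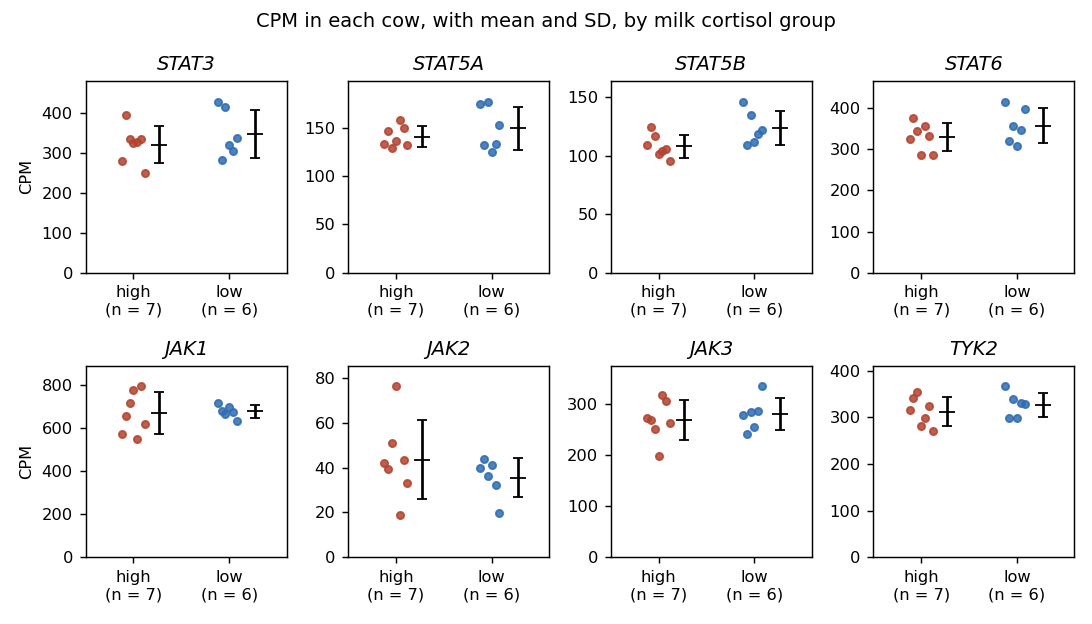
CPM of each of the 8 genes in each cow of the high (n = 7) and low (n = 6) milk cortisol groups, on linear axes from 0, with the mean and SD beside the points. The groups overlap in every panel, the widest spread is that of JAK2 in the high group (43.4 ± 17.6 CPM), and STAT5B has means of 108 and 124 CPM.

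**Figure D3:**
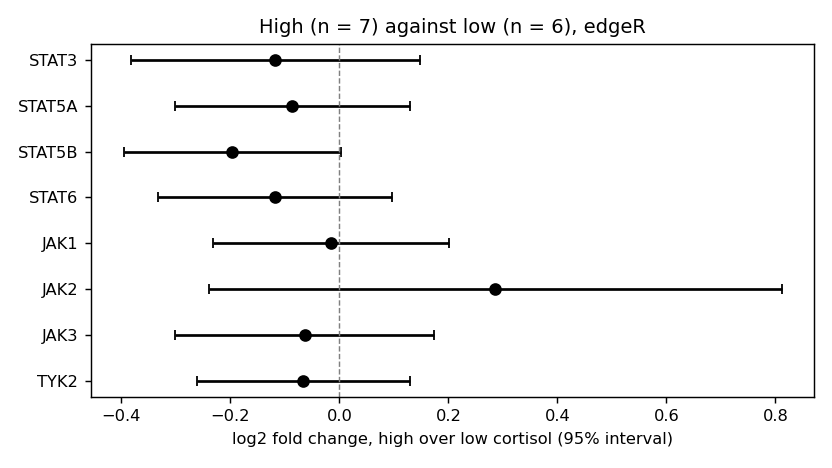
Log2 fold change of the 8 genes, high over low cortisol, with 95% intervals from the edgeR fit (7 against 6 cows). Every interval includes 0; that of STAT5B runs from -0.40 to 0.00 and that of JAK2 from -0.24 to 0.81.

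The ratio of STAT5A to STAT5B per kilobase was read for each cow, since both genes answer the same cytokines. STAT5A was the higher in 13 of 13 cows, with a ratio of 1.31 ± 0.133 (SD) and a range of 1.15 to 1.59. In the high group the ratio was 1.37 ± 0.155 (1.15 to 1.59), and in the low group 1.25 ± 0.0765 (1.17 to 1.37). Cow 3 had the lowest ratio of all and cows 4 to 7 the 4 highest, all of the high group, which thus held both ends. The difference of 0.12 on the log2 scale did not pass the exact two-sided permutation test (p = 0.155). Without cow 3 it was 0.16 (exact p = 0.0476).

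Across the 13 cows, most pairs of the 4 STAT genes and TYK2 were positively correlated in TMM-scaled values. Whether they passed depended on this scaling, as given below. Pearson's r of log2 CPM was computed for the 28 pairs of the 8 genes, with permutation p from 100000 resamples and Benjamini-Hochberg adjustment over the 28. Of these pairs 12 passed at an adjusted p of 0.05, 11 of them with a positive r, and 9 of the 11 were among the 10 pairs of STAT3, STAT5A, STAT5B, STAT6 and TYK2, where r was between 0.47 and 0.86. This block of genes was picked from these same correlations, so the count within it is a description and carries no test. An r of at least 0.7 was found in 25% of the 28 pairs and in 4.41% of all pairs of tested genes. The latter pairs were not matched to the 8 genes in level. The 8 genes share library, depth and scaling in each cow.

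STAT5B and TYK2 had the highest positive r, 0.86 (permutation p = 1.50e-04, adjusted p = 0.00308, rho = 0.88 with p = 1.90e-04 and adjusted p = 0.00532). It was 0.85 without cows 8 and 10, the 2 farthest from the median of STAT5B, 0.90 within the high and 0.95 within the low group. STAT3 and STAT5B had r = 0.83 (p = 3.50e-04, adjusted p = 0.00308, rho = 0.71 with p = 0.00776 and adjusted p = 0.0264) and 0.66 without cows 7 and 8, the 2 farthest from the median of STAT3. STAT5B and STAT6 had r = 0.83 (p = 5.50e-04, adjusted p = 0.00308, rho = 0.80 with p = 0.00159 and adjusted p = 0.0175) and 0.81 without cows 8 and 10. STAT6 and TYK2 had r = 0.82 (p = 5.00e-04, adjusted p = 0.00308, rho = 0.77 with p = 0.00300 and adjusted p = 0.0210) and 0.67 without cows 4 and 7, the 2 farthest from the median of STAT6. These 4 pairs passed whichever cow was left out.

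The other positive pairs were less steady. STAT3 had an r of 0.76 with STAT5A, 0.72 with STAT6 and 0.73 with TYK2 (adjusted permutation p = 0.0134, 0.0164 and 0.0164), and 0.69, 0.48 and 0.47 without cows 7 and 8. STAT5A and STAT6 had r = 0.68 (adjusted p = 0.0295), and 0.61 without cows 8 and 10. STAT6 and JAK3 had r = 0.65 (adjusted p = 0.0397), and 0.49 without cows 4 and 7. The neighbours STAT5A and STAT5B had r = 0.64 (adjusted p = 0.0432, rho = 0.41 with adjusted p = 0.304), but 0.11 without cows 8 and 10. The pair was near the limit and failed the test after any of 9 of the 13 cows was left out. With a cow left out, their r ran from 0.48 to 0.75. Within the high group their r was 0.05, and within the low group it was 0.93. Without cow 8 alone, 7 of the 12 pairs still passed, and without cow 7 there were 8.

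The scaling of the libraries moved with this block of genes. The TMM factor by which each library was divided was itself negatively related to STAT6 (r = -0.90, permutation p = 3.00e-05, adjusted p = 0.00168 over 56 relations, rho = -0.93), STAT5B (r = -0.83, adjusted p = 0.00459), STAT3 (r = -0.71, adjusted p = 0.0360) and TYK2 (r = -0.71, adjusted p = 0.0361), and an r of -0.7 or below was found for 9.31% of the other tested genes. Without cows 2 and 8, r was -0.87, -0.77, -0.51 and -0.58 in this order. With total counts only and no factors, 1 of the 12 pairs passed, JAK1 with JAK2 (r = 0.79, adjusted p = 0.0496), and r of STAT5B with TYK2 was 0.66 (adjusted p = 0.0920). With the factors of DESeq2 (RLE) all 12 passed. The part of the scaling in the shared movement was not tested beyond this.

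The ratio of the counts of a pair of genes within a cow is free of library size and factors, and its spread is given as a description. A small spread of the ratio also follows from a low spread of each gene and does not by itself show shared movement, as JAK1 with TYK2 (r = 0.19) had an SD of 0.18, with 6.92% of all pairs smaller. The ratio of STAT5B to TYK2 counts had an SD of 0.089 on the log2 scale over 13 cows, and its highest value was 1.23 times its lowest. Among all 18951246 pairs of tested genes with at least 20 CPM, 0.0643% had a smaller SD, and the median SD was 0.35. STAT6 with TYK2 (SD 0.094, 0.101% of all pairs smaller) and STAT5B with STAT6 (0.099, 0.155%) followed. Over the 10 pairs of the 4 STAT genes and TYK2 the SD ran from 0.089 to 0.16, with a median of 0.14, so that no ratio within this block changed by more than 1.47-fold between any cows. STAT5A with TYK2 had this widest range.

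**Figure D4:**
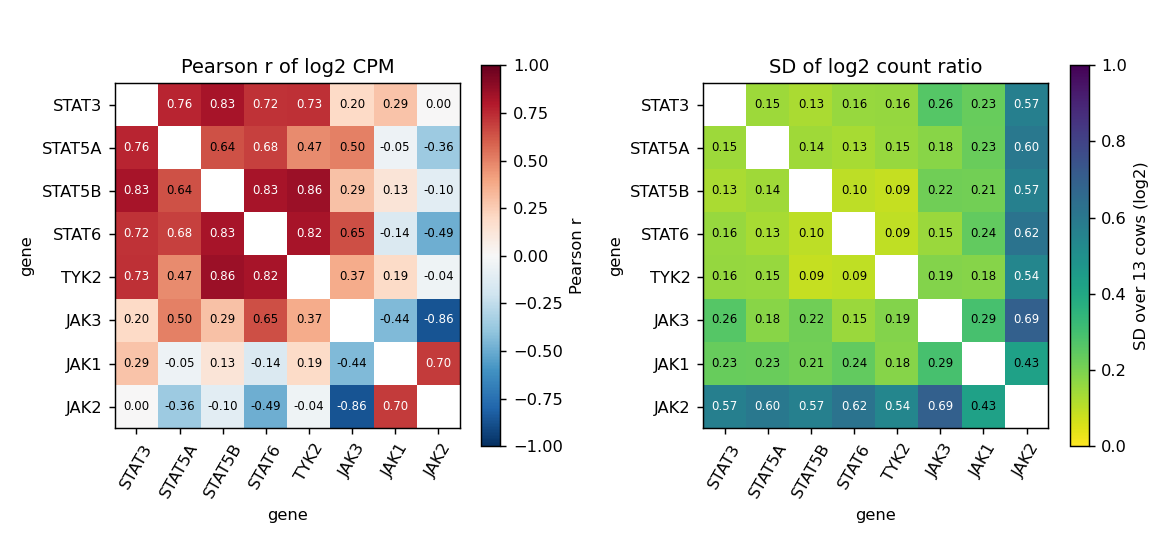
Left, Pearson's r of log2 CPM over 13 cows for each pair of the 8 genes, from -1 (blue) to 1 (red). Right, SD over the 13 cows of the log2 ratio of their counts, which does not depend on library scaling, from 0 (yellow) to 1 (violet). The block of STAT3, STAT5A, STAT5B, STAT6 and TYK2 has r between 0.47 and 0.86 and an SD of at most 0.16, and JAK2 has an SD of 0.43 or more with every other gene.

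JAK2 and JAK3 varied in opposite directions. Their r was -0.86 (permutation p = 2.90e-04, adjusted p = 0.00308, rho = -0.75 with p = 0.00462 and adjusted p = 0.0259), and it was -0.79 without cows 5 and 13, -0.82 within the high and -0.93 within the low group. The pair passed whichever cow was left out, with r = -0.78 without cow 4, and it had r = -0.74 (adjusted p = 0.0528) with total counts only. An r of -0.7 or below was found in 4.04% of all pairs of tested genes, which were not matched in level. The SD of the log2 count ratio, 0.69, was the widest of the 28 pairs, and 94.0% of all pairs of genes had a smaller one.

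The values of single cows show the span of this opposition. Cow 4 had 76.2 CPM of JAK2 and 199 of JAK3, the highest and the lowest value of the 13. Cow 13 had 19.97 and 334 CPM, and cow 5 had 19.03 and 317. Per kilobase of exon, JAK3 was above JAK2 in every cow, 2.45 times in cow 4, 15.7 times in cows 5 and 13 and 6.53 times in the median cow. The lowest ratio was thus in the high group and the highest in 1 cow of each group, and the medians were 6.43 in the high and 6.95 in the low group. JAK1 followed JAK2, with r = 0.70 (permutation p = 0.00818, adjusted p = 0.0254, rho = 0.69 with adjusted p = 0.0324), but this pair did not pass without cow 4 (r = 0.62) or without cow 5 (r = 0.56).

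**Figure D5:**
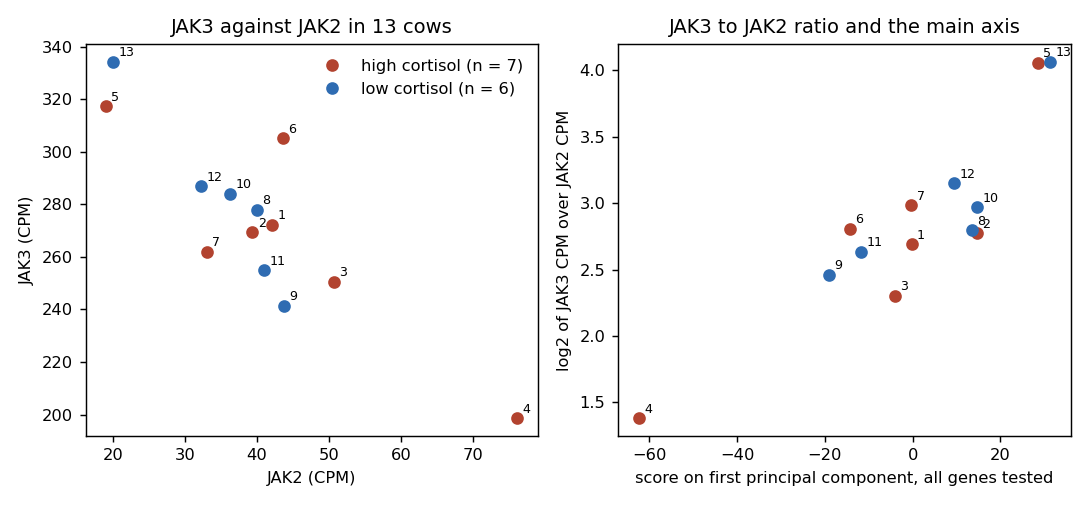
Left, CPM of JAK3 against CPM of JAK2 in each of the 13 cows, numbered as in the text (1 to 7 high, 8 to 13 low). Right, log2 of the JAK3 to JAK2 ratio of CPM against the score of the cow on the first principal component of all tested genes. Cow 4 (76.2 and 199 CPM) and cows 5 and 13 (19.03 and 19.97 CPM of JAK2) lie at opposite ends of both panels, and cow 4 has a score of -62.4.

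JAK2 and JAK3 also followed the main axis of variation of the whole table. With the first principal component, in which the members themselves are a small part, JAK2 had r = -0.86 (permutation p = 1.20e-04, adjusted p = 0.00224, rho = -0.84), JAK3 r = 0.87 (p = 4.10e-04, adjusted p = 0.00459, rho = 0.74) and STAT6 r = 0.75 (p = 0.00197, adjusted p = 0.0138, rho = 0.82). Without cows 4 and 13 these were -0.71, 0.60 and 0.61. Such values were common, since 15.1% of the other tested genes had an r of at least 0.7 with this component and 18.3% had one of -0.7 or below. After this component was regressed out of each gene, r was -0.44 for JAK2 with JAK3, 0.40 for JAK1 with JAK2 and -0.01 for STAT6 with JAK3, and 7 of the 12 pairs still passed. The r of JAK2 with TYK2 went from -0.04 to 0.79 and that of JAK2 with STAT5B from -0.10 to 0.70. The component did not differ between the cortisol groups (exact p = 0.442).

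JAK1 and JAK2 also varied with a feature of the libraries. For each cow, the slope of log2 CPM on log2 exon length over all tested genes was computed, a measure of whether long genes were counted more. JAK1 had r = 0.86 with this slope (permutation p = 9.00e-05, adjusted p = 0.00224, rho = 0.93) and JAK2 r = 0.76 (p = 9.10e-04, adjusted p = 0.00849, rho = 0.79), and 6.33% of the other tested genes had an r of at least 0.7. Without cows 4 and 8 these were 0.84 and 0.71. The other members had r between -0.58 (JAK3, adjusted p = 0.101) and 0.25 (STAT3), and none of them passed. TYK2, which had the longest exon length of the members (5781 bp), had r = 0.14, so the relation did not follow the length of each member. STAT3 was lower where the share of counts on unnamed genes was higher (r = -0.79, permutation p = 0.00171, adjusted p = 0.0137, rho = -0.64 with adjusted p = 0.0856), with r = -0.55 without cows 7 and 8. What part these features had in the levels of the 3 genes was not tested.

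Since the genes are used in many blood cell types, each was set against the scores of 10 lists of marker genes, a score being the mean centred log2 CPM of a list in a cow. None of the 80 relations passed after Benjamini-Hochberg adjustment, and 13 had an unadjusted permutation p below 0.05. The highest were those of STAT5A and of STAT6 with the interferon response score, r = 0.73 for each (p = 0.00575 and 0.00522, adjusted p = 0.214, rho = 0.73 and 0.82), and 1.86% of other tested genes had an r of at least 0.7 with that score. Without cows 5 and 8 these were 0.54 and 0.63. STAT5B, STAT3 and JAK3 had r of 0.63, 0.57 and 0.56 with the same score (adjusted p = 0.245, 0.276 and 0.276). With a cow left out, that of STAT5B ran from 0.42 to 0.85, the highest being without cow 5 (adjusted permutation p = 0.0272). It was 0.06 within the high and 0.86 within the low group. JAK2, TYK2 and JAK1 had r of -0.54, 0.49 and -0.21 with the interferon response score (adjusted permutation p = 0.342, 0.376 and 0.775). Interferon genes are known targets of TYK2 and JAK1 signalling, though neither kinase passed with the score. The summed level of the interferon list was 2347 to 8280 CPM in cows of the high group and 2969 to 13700 in those of the low group.

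The other relations with scores were of similar or smaller size and did not pass. JAK1 had r = 0.70 with the neutrophil score (adjusted p = 0.214) and -0.61 with the B cell score (adjusted p = 0.260), and JAK2 had -0.61 with the B cell score (adjusted p = 0.276). STAT3 had r = 0.66 with the glucocorticoid response score and 0.64 with the monocyte score (adjusted p = 0.245 for both). STAT5B and TYK2 each had r = -0.57 with the T cell score (adjusted p = 0.276), and STAT5B had -0.63 with the erythroid score (adjusted p = 0.245). Without the 2 cows farthest from the median of each score, JAK1 had 0.48 and -0.27 and JAK2 -0.33, in the order given. STAT3 then had 0.60 and 0.24, STAT5B -0.61 and -0.39, and TYK2 -0.65. JAK3, a kinase known for its role in lymphocytes, had no relation with the T cell or B cell score at an unadjusted p below 0.05.

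The lists behind these scores were measured as follows. The neutrophil list had 6 of 11 genes tested (summed level 3135 to 7833 CPM in the high and 5222 to 7091 in the low group), the monocyte list 8 of 8 (950.4 to 1763 and 1347 to 1758) and the T cell list 12 of 12 (2609 to 3736 and 2872 to 4370.1). The B cell list had 7 of 8 (1387 to 3023 and 1440.4 to 2463), the cytotoxic and NK list, led by TBX21, 9 of 10 (480.04 to 844 and 481 to 823) and the eosinophil list, led by ALOX15, 3 of 6 (220.4 to 1151 and 173 to 529). The platelet list, led by TUBB1, had 7 of 9 (261 to 534 and 283 to 643) and the glucocorticoid response list, led by ANXA1, 10 of 10 (1412 to 2191 and 1609 to 2172). The erythroid list, led by HBB, had 6 of 10 tested (379 to 7845 CPM and 141 to 573), and the interferon response list, led by IFIT3, 22 of 24. Summed levels cover every list gene found by name, which were 7 for the neutrophil, 4 for the eosinophil and 10 for the erythroid list. No list gene found by name was at 0 in all cows. Of the 10 scores, that of the erythroid list differed most between the groups (0.93 higher in the high group on the log2 scale, exact p = 0.0175, adjusted p = 0.175), and that of the interferon response list was 0.74 lower (exact p = 0.105, adjusted p = 0.524).

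For each of the 8 genes, the genes with the most similar pattern over the 13 cows were sought among 7668 tested genes with a mean of at least 10 CPM, as a description. STAT3 was most like SLC45A4 (r = 0.96), NFIC (0.93) and SBNO2 (0.92), and STAT5A most like CCRL2 (0.89), TRAFD1 (0.85) and TRIM26 (0.85). The genes most like STAT5B were SELPLG (r = 0.94), which encodes the P-selectin ligand of leukocytes, CSF3R (0.93), the receptor of granulocyte colony-stimulating factor, and CD68 (0.92), a lysosomal protein of phagocytes. CD68 is 1 gene of the monocyte list. With the whole monocyte and neutrophil scores STAT5B had r of 0.43 and 0.40 (adjusted permutation p = 0.449 for both). Without the 2 cows farthest from the median of each score these were 0.0063 and 0.013. TYK2 was most like FCHSD1 (0.95), ITGB2 (0.94), the beta 2 chain of leukocyte integrins, and OS9 (0.93), and STAT6 most like TRPC4AP (0.97), CAPN1 (0.97) and SF3B2 (0.95).

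The 3 genes most like JAK2 and those most like JAK3 were of other kinds. JAK2 was most like RLF (r = 0.98), GGNBP2 (0.97) and SMC6 (0.96), and JAK1 most like SYNJ1 (0.89), ZNF333 (0.88) and SMARCA2 (0.88). JAK3 was most like IPO9 (0.95), a nuclear import receptor, DDX11 (0.94) and CDK5RAP3 (0.93). As these genes were picked from 7668 for their likeness, the values of r carry no test.

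The other genes of the pathway were read from the same fit, in the order in which a signal passes. Of 27 cytokine ligands listed, 25 were found and 9 passed the filter on low counts. The 16 others included IL2 with 0 to 11 counts in a cow, IFNG with 0 to 8, IL4 and IL13 with 0 to 6 and IL6 with 0 to 4. No ligand passed the adjusted test, and at an unadjusted p below 0.05 IL23A, which encodes a subunit of IL-23, was the lower in the high group, against 1.16% of all genes tested that were lower at this limit. IL23A had 34.7 ± 6.31 CPM in the high group (24.2 to 43.8) and 45.7 ± 13.2 in the low group (33.4 to 63.5), with a log2 fold change of -0.40 (SE 0.17, exact permutation p = 0.0839, edgeR adjusted p = 0.998), and the groups overlapped. Its row is uncertain, since it lies next to STAT2 on the other strand and counting did not use strand. The median log2 fold change of the 9 ligands was -0.06.

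Of 38 receptor chains listed, 34 were found and 27 were tested. Receptors known to signal through a pair of JAK2 molecules had few counts or none, with GHR, the growth hormone receptor, at 0 to 18 counts in a cow, PRLR, the prolactin receptor, at 2 to 14, EPOR, the erythropoietin receptor, at 0 to 8, and LEPR, the leptin receptor, at 0 in all 13, which allows up to 3 counts, or 0.107 to 0.272 CPM in a cow by counting error alone. The chains with the highest level per kilobase were CSF3R at 1378 CPM per kilobase of exon, IL2RG, the common gamma chain, at 872 and IFNGR2, a chain of the interferon gamma receptor, at 414. None of the 27 passed the adjusted edgeR test, and 2 were lower in the high group at an unadjusted p below 0.05, as were 1.16% of all genes tested. IL21R had 82.0 ± 12.8 CPM in the high and 106 ± 21.5 in the low group (log2 fold change -0.37, SE 0.14, exact permutation p = 0.0315), with 7 of 7 cows of the high group below the median of the low group. CSF3R had 3023 ± 858 and 4122 ± 1093 CPM (log2 fold change -0.45, SE 0.19, exact permutation p = 0.0524), with 6 of 7 cows below it, and -0.16 with the haemoglobin share as a covariate. IL2RG had 1244 ± 220.4 and 1337 ± 156 CPM (log2 fold change -0.10, exact permutation p = 0.378) and IFNGR2 360.4 ± 60.7 and 406 ± 44.6 (-0.17, p = 0.164). The median over the 27 chains was 0.00, with 14 above 0 and 13 below.

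Of 21 inhibitors and phosphatases that end a JAK or STAT signal, 20 were found and tested. PTPN6, a phosphatase of blood cells, had the highest level (492 CPM per kilobase), followed by PTPRC, the CD45 phosphatase (279.6), and SOCS3, the feedback inhibitor induced by STAT3 (103). These 3 had log2 fold changes of -0.03, -0.05 and -0.19 (exact permutation p = 0.843, 0.574 and 0.321). PIAS1, which encodes a SUMO ligase that restrains STAT proteins, was the only 1 of the 20 with an unadjusted p below 0.05, a limit passed by 2.09% of all genes tested. It had 159 ± 20.8 CPM in the high and 186 ± 21.7 in the low group (log2 fold change -0.23, SE 0.11, exact permutation p = 0.0449, edgeR adjusted p = 0.998), and -0.09 with the haemoglobin share as a covariate. The median of the 20 was 0.02.

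Target genes of the STAT proteins closed the list, with 21 of 22 found and tested. By edgeR, 0 of the 21 had an unadjusted p below 0.05, and the smallest was that of IL2RA, which encodes the high-affinity chain of the IL-2 receptor. The targets with the highest level, CCND3, PIM1 and JUNB, had log2 fold changes of -0.06, 0.06 and 0.10 (exact permutation p = 0.585, 0.761 and 0.681). In CPM, CCND3 had 826 ± 130.4 in the high and 859 ± 103 in the low group, PIM1 169 ± 37.5 and 162 ± 34.0, and JUNB 227 ± 60.1 and 212 ± 34.5. Their groups overlapped, and the median over the 21 targets was -0.02 with 9 above 0 and 12 below.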

How the data were processed

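The authors deposited raw counts of reads per gene name and cow, not normalized. The table headers give featureCounts 1.4.6-p3, run on exons of the Ensembl 88 models of UMD3.1 without options for strand, pairs or multiple hits. They also list alignment files whose animal numbers differ from those of the tables, under a folder name containing goat, whereas the paper and the submitters' processing notes name STAR 2.7.3, Subread 1.6.5 and ARS-UCD1.2. Groups are from the sample labels. The unnamed entry (13.9% to 16.7% of counts) was left out, and positions are those of the tables.

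TMM factors were used for CPM and log2 CPM (prior count 2). Groups were compared with edgeR 4.0.16 in R 4.3.3 (quasi-likelihood, robust, no covariate) over 11033 genes that passed filterByExpr (minimum count 10, minimum total 15), with Benjamini-Hochberg adjustment. SE is the log2 fold change over the square root of F. Exact tests used all 1716 splits of 7 against 6 cows (smallest p 5.83e-04), and correlations 100000 resamples. Intervals are 95%. Each library came from 1 cow. Alternatives were DESeq2 1.42.0, limma-voom (limma 3.58.1), other factors and filters, a fit that is not robust, covariates, and each cow left out. Tests were first tried on simulated data.

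The members, the gene lists and the rules were chosen with earlier results of these data known. Genes named are all members, of each pathway list those with an unadjusted p below 0.05 and the 3 with the highest level, the 3 genes most like each member, and the most abundant gene of each marker list. IL2RA, IL5RA and OSM each stand in 2 lists. IL2RA and the ligands and receptors below the filter were named after their values were seen. Library measures (TMM factor, principal components, exon length slope, depth, unnamed and haemoglobin shares; 7 for each of 8 genes), count ratios of pairs and the regressions on the first principal component or on the neutrophil minus T cell score were added after seeing the data. No sequence or promoter was analysed here.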

Additional observations from a re-analysis of the deposited data

How the results depend on the processing

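No paired analysis was possible because the groups share no replicate numbers. Over 184 refits of the 8 JAK and STAT fold changes, 174 kept their sign and 0 had an adjusted p below 0.05. The sign turned for STAT3 (0.033), STAT6 (0.0038) and TYK2 (0.038) with the log2 haemoglobin share as covariate, for JAK3 with the first principal component (0.015), and for JAK1 with upper-quartile factors (0.0014), the neutrophil minus T cell score (0.027) and cows left out (-0.061 to 0.026). At an unadjusted p below 0.05, leaving out a cow gave 0 to 1 of the 8, which was STAT5B without cow 2 (log2 fold change -0.23), cow 9 (-0.23) or cow 11 (-0.22). Among all genes DESeq2 called 1 where edgeR called 0. The 231 genes at an unadjusted p below 0.05 became 348 with DESeq2, 414 without a filter, 120 with the haemoglobin covariate, and 191 to 373 with a cow left out (373 without cow 2, 363 without cow 5).

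Receptor chains at that limit fell from 2 to 1 with each of the 3 covariates, and were 1 to 4 with a cow left out (1 without cow 4 or cow 7, 4 without cow 9). The inhibitor at that limit was lost (0) without a filter, with each covariate and in 9 of 13 fits without a cow (0 to 1). The ligand was lost (0) with limma-voom, with each covariate and in 7 of 13 fits without a cow (0 to 1), and without a filter there were 3. STAT targets went from 0 to between 0 and 2 without a cow (2 without cow 2 or cow 8, 1 without cow 10). The STAT5A to STAT5B difference was 0.078 to 0.16 with a cow left out. The 12 called pairs became 1 without factors and 7 to 13 with a cow left out (7 without cow 8), and the r of STAT6 with JAK3 was -0.010 with the first principal component regressed out. With that component or the neutrophil minus T cell score regressed out there were 13 each, of which 7 and 12 were among the original 12. Relations with scores were 0 to 1. The order of levels kept 6 to 8 of 8 places. The cause of these changes was not tested. With 7 against 6 cows, the precision is set by the spread between cows more than by counting, as every member had at least 332 counts.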
